A study of Mus musculus with 6 samples.

Results

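The heat shock proteins and DnaJ chaperones were followed in whole spleen of mice given perfluorooctane sulfonate (PFOS), a persistent fluorinated surfactant. A probe set belonged to them when the platform annotation gave it 1 gene symbol that begins with Hsp90, Hspa, Hspb, Hspd, Hspe, Hsph or Dnaj. The rule chose 174 probe sets of 72 genes, out of 45101 probe sets on the array and 34945 with 1 gene symbol. The PFOS group held 3 spleen samples of Balb/c mice that received 10 mg PFOS per kg body weight per day by stomach tube for 3 weeks. The control group held 3 spleen samples of untreated Balb/c mice. All mice were 6 to 8 weeks old and carried no transgene or mutation that the labels name. Each sample was read on 1 Affymetrix Mouse430_2 array, and every value below is a log2 intensity after RMA (robust multi-array average) as deposited. The labels call the 3 samples of each group biological replicates and do not say whether each came from a mouse of its own, so p-values measure the spread between these samples.

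Chaperones bind unfolded protein and help it to fold, to reach its place in the cell or to be destroyed. Hsp70 proteins do this in cycles of ATP hydrolysis that DnaJ proteins (also called Hsp40) start through their J domain and that Hsp110 proteins reset by nucleotide exchange, while Hsp90 finishes the folding of kinases and receptors. Small heat shock proteins hold unfolded protein without ATP, and the chaperonin Hspd1 with its lid Hspe1 folds protein inside mitochondria. Under heat or other protein damage, heat shock factors bind paired GAA units in promoters and raise many of the cytosolic members, whereas the unfolded protein response raises those of the endoplasmic reticulum (ER). In spleen, chaperones of the ER serve antibody secretion, and in human red cell precursors nuclear Hsp70 protects the transcription factor GATA1 from cleavage.

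The arrays of a group correlated at 0.9985 to 0.9991 over the 13101 genes tested below, with 1 probe set for each. Those of different groups correlated at 0.969 to 0.9698. Labelling spikes, foreign transcripts added to the RNA before labelling, averaged 5.79 to 5.84 on PFOS arrays and 6.29 on control arrays, while the hybridization spikes ran from 9.98 to 10.01 in both groups. The labelling spike averages on PFOS arrays lay close to 5.62, the floor of the filter on low values used below. The 3' minus 5' difference of the Actb control probe sets, a sign of RNA length, was 2.21 to 2.22 on PFOS arrays and 2.03 to 2.04 on control arrays. That of Gapdh went the other way, at 1.68 to 1.70 on PFOS arrays and 1.73 to 1.75 on control arrays. All mice are labelled female, yet the highest Xist probe set lay between 5.62 and 5.86 and the highest Eif2s3y probe set, a Y-linked gene, between 9.62 and 9.91 over the 6 arrays, which goes against that label. Lymphocyte markers were high, as spleen has them: summed B cell markers reached 13.69 to 13.70 in PFOS spleens and 13.22 in control spleens.

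The chaperones did not move as one group. Of the 65 genes that passed a filter on low values, 24 rose (36.9%), 19 fell (29.2%) and 22 were not called in PFOS spleens at a Benjamini-Hochberg adjusted p under 0.05 in limma. Over all 13101 genes tested, 40.6% rose and 26.0% fell, so both chaperone shares lie near the background. The median change, PFOS minus control, was 0.003 on the log2 scale for the chaperones and 0.05 for all genes. The size of the falls was less alike: 9 chaperone genes (13.8%) were called lower by 0.5 log2 or more, against 7.03% of all genes, and 1 (1.54%), Hspb1, was called higher by as much, against 2.09% of all genes. Among called falls the median size was 0.38 for chaperones and 0.27 for all genes, and among called rises it was 0.23 and 0.22. Of the 9 larger falls, 8 belonged to genes of cytosolic proteins and 1, Hspd1, to a mitochondrial one. The cytosolic ones include Hspb6, whose mean of 5.53 in PFOS spleens lies under the floor of the filter on low values. Values there are near background, so the size of the Hspb6 fall, and its place in this count, is uncertain. In whole spleen, fewer cells of a type and less RNA per cell cannot be told apart.

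**Figure D1:**
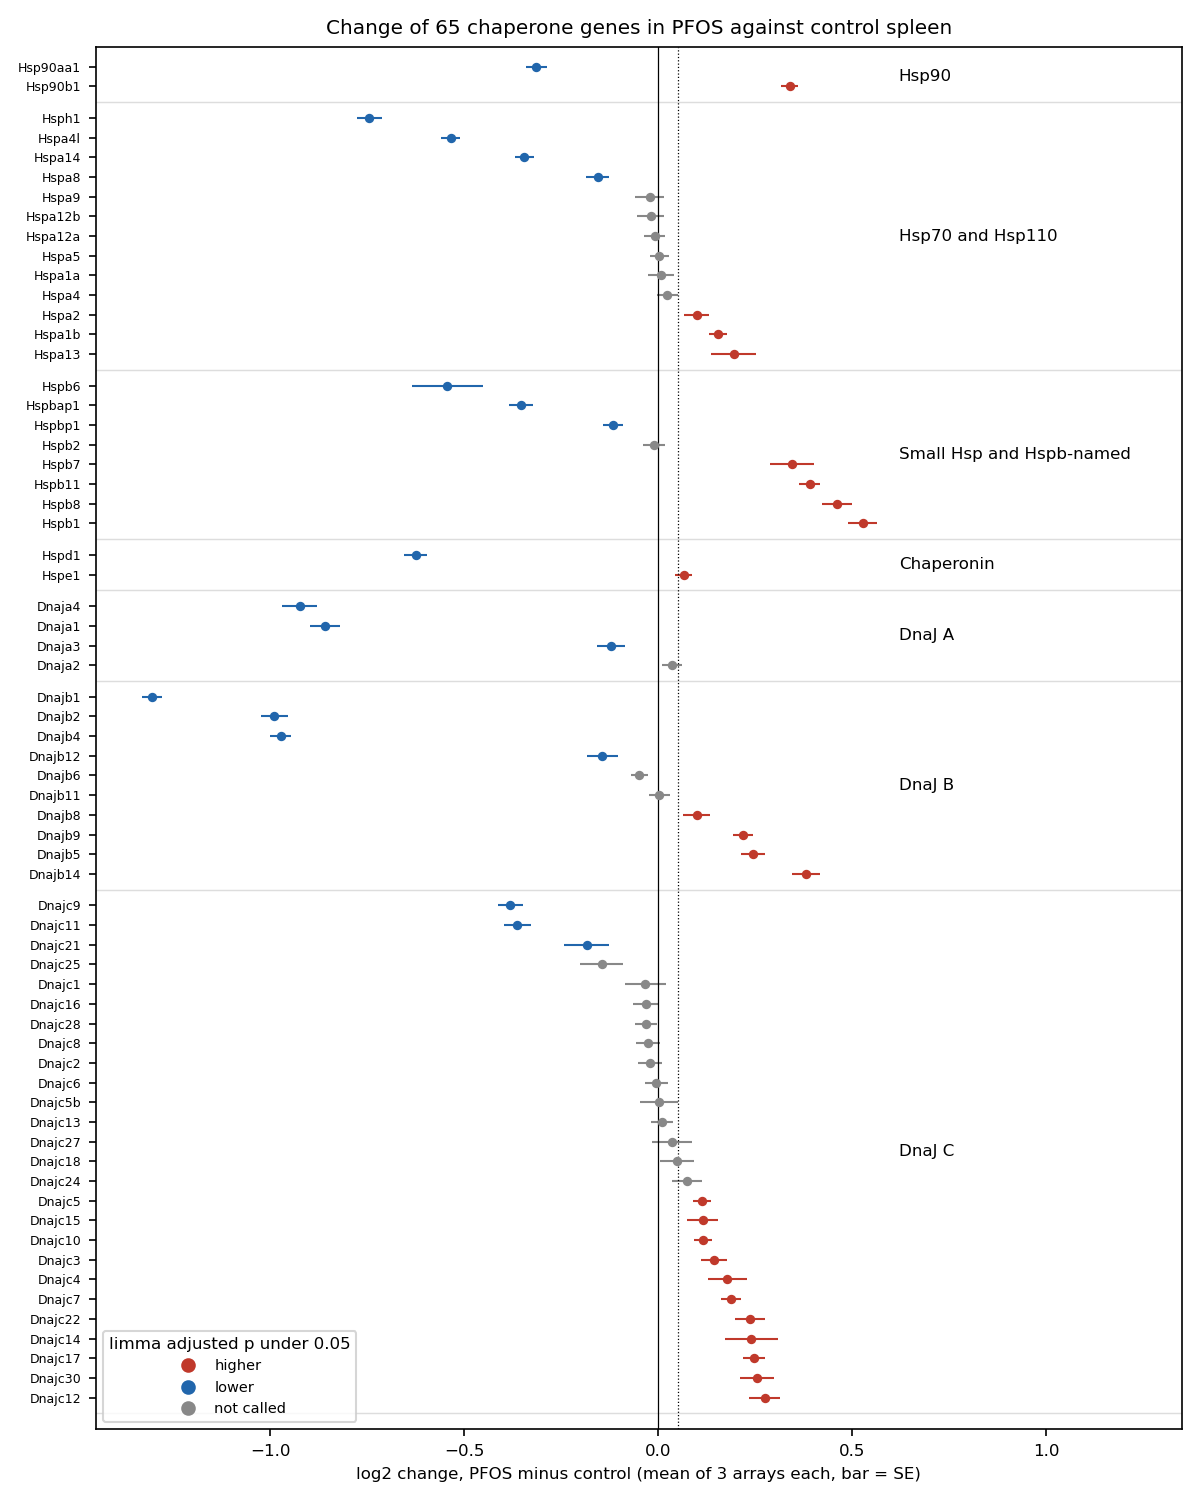
Log2 change of each of the 65 chaperone genes, PFOS minus control, with its standard error (SE) as a bar and genes grouped by family; the dotted line marks the median of all genes at 0.05. The largest falls are those of Dnajb1, Dnajb2 and Dnajb4 (-1.31, -0.99 and -0.97), and the largest rise is that of Hspb1 (0.53).

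By compartment, cytosolic members ranged most widely. Of 34 tested genes for cytosolic proteins, 9 rose, 13 fell and 12 were not called, with changes between -1.31 and 0.53 and a median of -0.01. Of 13 ER genes, 7 rose, 1 fell and 5 were not called, with a median of 0.12 and a range of -0.15 to 0.38. The 8 mitochondrial genes split into 4 that rose, 3 that fell and 1 not called. Of 10 genes for proteins of other or mixed places, 4 rose, 2 fell and 4 were not called. Over all genes tested, 40.6% rose and 26.0% fell. No test was made of the difference between compartments.

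The largest changes lay in the cytosolic DnaJ A and DnaJ B genes, whose proteins are the general partners of cytosolic Hsp70. Of 9 tested, 5 fell, 2 rose and 2 were not called, and their median change was -0.86. Over all genes tested, 26.0% fell and 40.6% rose. Dnajb1, the heat-inducible partner that helps Hsp70 to refold damaged protein, had log2 values of 9.22, 9.27 and 9.22 in PFOS spleens, against 10.52, 10.54 and 10.56 in control spleens. All 3 PFOS arrays lay far below all control arrays, and the change was -1.31 ± 0.03 (SE, n = 3 each), 2.47-fold lower, with a limma adjusted p of 2.47e-08. Its second probe set fell by 1.09 on the log2 scale, where calls on further probe sets of a gene come from a separate limma fit over all probe sets.

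Dnajb2, which also binds ubiquitin and is best known from neurons, stood at 8.84, 8.94 and 8.84 in PFOS spleens and at 9.89, 9.83 and 9.86 in control spleens. The groups did not overlap, and the change was -0.99 ± 0.04 (SE), with a limma adjusted p of 3.6e-07. Dnajb4, a close relative of Dnajb1, read 8.90, 8.86 and 8.93 in PFOS spleens and 9.89, 9.87 and 9.86 in control spleens. Again no array of 1 group reached the other, and the gene fell by 0.97 ± 0.03 (SE), with a limma adjusted p of 1.1e-07. A second Dnajb4 probe set fell by 1.09, and another, with a change of 0.10, was not called.

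Dnaja1, the main type A partner of Hspa8, gave 10.64, 10.53 and 10.55 in PFOS spleens, against 11.49, 11.42 and 11.39 in control spleens. Every PFOS array was lower than every control array, by 0.86 ± 0.04 on average (SE, limma adjusted p = 1.58e-06). Both of its other probe sets fell by 0.34. For Dnaja4, another type A member, the values were 7.24, 7.32 and 7.40 in PFOS spleens and 8.20, 8.28 and 8.25 in control spleens. It fell by 0.92 ± 0.05 (SE, limma adjusted p = 2.12e-06) without overlap, with changes of -0.46 and -0.77 on 2 further probe sets.

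In the rest of the same group, 2 genes were not called on their brightest probe set and 2 rose. Dnaja2, also a partner of Hspa8, measured 11.17, 11.15 and 11.12 in PFOS spleens and 11.10, 11.10 and 11.13 in control spleens. Its groups overlapped, and its change of 0.04 ± 0.03 was not called (limma adjusted p = 0.25), although a dimmer probe set fell by 0.19. Dnajb6, which keeps polyglutamine proteins from clumping, had a change of -0.05 that was not called (limma adjusted p = 0.083), although its groups did not overlap and another probe set fell by 0.13. Dnajb5 rose by 0.24 ± 0.03 (SE), and Dnajb8, best known from testis, rose by 0.10 ± 0.04 (SE) with a limma adjusted p of 0.041. The Dnajb8 call is lost when PFOS replicate 2 or 3 or control replicate 1 or 2 is left out.

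**Figure D2:**
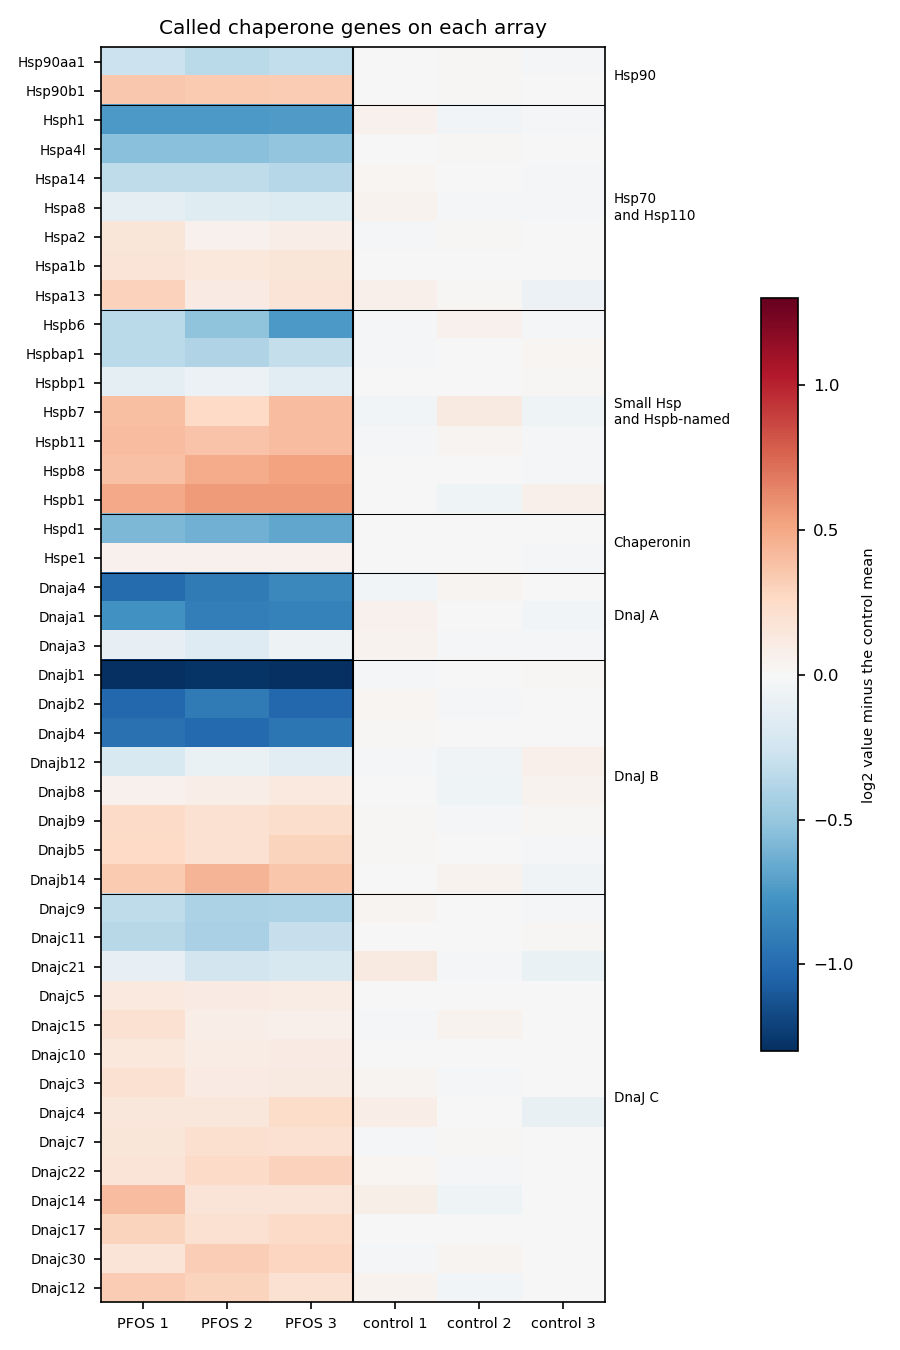
Log2 value of each called chaperone gene on each array, minus the gene's mean over the 3 control arrays, with PFOS arrays to the left of the line and families separated by thin lines. Dnajb1, Dnajb2, Dnajb4, Dnaja1 and Dnaja4 are low on all 3 PFOS arrays, and the lowest Hspb6 value lies on PFOS replicate 3.

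Promoter sequences show that members that fell and members that rose both carry heat shock pairs. The stretches below come from RefSeq on GRCm38.p6, run 5' to 3' on the gene's strand and end at the base before an annotated start site. Capitals mark the pairs GAANNTTC or TTCNNGAA. Dnaja1, Dnaja4, Dnajb4 and Hspd1 fell in PFOS spleens, while Hspb1 rose.
Dnaja1, chr4:40722318-40722467, plus strand: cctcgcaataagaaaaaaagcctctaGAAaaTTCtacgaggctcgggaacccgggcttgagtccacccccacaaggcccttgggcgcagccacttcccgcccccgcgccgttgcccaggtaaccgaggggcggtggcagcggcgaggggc
Dnaja4, chr9:54699409-54699558, plus strand: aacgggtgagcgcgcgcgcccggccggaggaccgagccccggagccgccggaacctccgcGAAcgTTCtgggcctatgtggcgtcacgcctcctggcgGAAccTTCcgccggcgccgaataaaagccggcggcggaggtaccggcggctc
Dnajb4, chr3:152193846-152193995, minus strand: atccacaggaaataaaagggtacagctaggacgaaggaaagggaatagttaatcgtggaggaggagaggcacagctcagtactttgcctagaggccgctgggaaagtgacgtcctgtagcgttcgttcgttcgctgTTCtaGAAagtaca
Hspd1, chr1:55087933-55088092, minus strand: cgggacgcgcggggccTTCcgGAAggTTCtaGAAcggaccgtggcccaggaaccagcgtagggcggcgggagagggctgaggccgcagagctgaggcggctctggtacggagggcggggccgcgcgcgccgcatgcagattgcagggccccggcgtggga
Hspb1, chr5:135887769-135887918, plus strand: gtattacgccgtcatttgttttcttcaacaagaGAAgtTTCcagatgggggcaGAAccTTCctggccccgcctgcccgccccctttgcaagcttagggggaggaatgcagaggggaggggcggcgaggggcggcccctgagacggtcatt
The pair of Dnaja1 begins 124 bases before its start site, those of Dnaja4 90 and 52 bases before, that of Dnajb4 14 bases before and those of Hspb1 117 and 97 bases before. Dnaja1, Dnaja4, Dnajb4 and Hspd1 have several annotated start sites, and of the promoter windows of each gene 1 holds pairs. The windows of Dnajb1 and Dnajb2, which also fell, hold no such letters.

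Among the Hsp70 and Hsp110 genes, 3 rose, 4 fell and 6 were not called, with a median of -0.01. Over all genes tested, 40.6% rose and 26.0% fell. The largest falls in this family were those of Hsph1 and Hspa4l. Hsph1, the main Hsp110 of the cytosol, had values of 10.16, 10.16 and 10.17 in PFOS spleens and of 10.97, 10.87 and 10.88 in control spleens. The PFOS arrays were nearly equal and all lower, the change was -0.75 ± 0.03 (SE, limma adjusted p = 1.16e-06), and a second probe set fell by 1.13. Hspa4l, a relative of Hsp110, had 7.51, 7.51 and 7.54 in PFOS spleens, against 8.04, 8.07 and 8.05 in control spleens. Its groups were well apart, at a change of -0.54 ± 0.02 (SE, limma adjusted p = 1.32e-06), and all 5 of its probe sets fell, with changes of -0.43 to -0.91. Hspa4, another relative of Hsp110, had 9.88, 9.86 and 9.82 in PFOS spleens and 9.85, 9.80 and 9.83 in control spleens. Its arrays overlapped and its change of 0.02 was not called (limma adjusted p = 0.46), although the mean over its probe sets was called lower, at -0.08.

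Hspa8, the constitutive Hsp70 of the cytosol, was 13.76, 13.73 and 13.71 in PFOS spleens and 13.94, 13.87 and 13.86 in control spleens. This fall of 0.16 ± 0.03 (SE, limma adjusted p = 0.0025) is small beside those of the DnaJ partners. Another Hspa8 probe set, at a mean over the arrays of 7.60, fell by 1.61, and the remaining ones had changes of -0.24 and -0.19. Hspa14, which works at the ribosome, fell by 0.35 ± 0.03 (SE), but its other probe sets, at -0.06 and -0.08, were not called.

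Of the stress-inducible Hsp70 pair, Hspa1b had 9.78, 9.75 and 9.77 in PFOS spleens and 9.60, 9.62 and 9.61 in control spleens. All PFOS arrays were higher, and it rose by 0.16 ± 0.02 (SE, limma adjusted p = 7.63e-04). Hspa1a had 6.55, 6.54 and 6.57 in PFOS spleens and 6.61, 6.52 and 6.51 in control spleens. Its groups overlapped, and its change of 0.01 was not called (limma adjusted p = 0.87). The genes are near-identical copies whose probes could share transcripts, so the difference between them is uncertain, and the 150 bases before their start sites differ at 1 base, with 149 identical. Both promoters, shown because they are the textbook targets of heat shock factors, hold 1 pair that begins 104 bases before the start site.
Hspa1a, chr17:34972157-34972306, minus strand: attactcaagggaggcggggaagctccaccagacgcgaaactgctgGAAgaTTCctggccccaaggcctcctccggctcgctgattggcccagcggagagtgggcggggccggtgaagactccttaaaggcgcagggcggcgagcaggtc
Hspa1b, chr17:34959239-34959388, minus strand: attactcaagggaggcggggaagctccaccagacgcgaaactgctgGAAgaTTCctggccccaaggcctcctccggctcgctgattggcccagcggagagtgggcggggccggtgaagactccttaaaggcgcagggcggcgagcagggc
Hspa2, best known from testis, rose by 0.10 ± 0.03 (SE), a call that is lost when any array except PFOS replicate 2 is left out. Hspa12a and Hspa12b, distant members of the family, had changes of -0.01 and -0.02 that were not called.

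The Hsp90 genes went in opposite directions by compartment. Hsp90aa1, the inducible Hsp90 of the cytosol, had 12.19, 12.12 and 12.15 in PFOS spleens, against 12.48, 12.49 and 12.45 in control spleens. It was lower on all 3 PFOS arrays, by 0.31 ± 0.03 (SE, limma adjusted p = 4.87e-05), and other probe sets of it fell by 0.92 and 1.05. Hsp90b1 (Grp94), the ER member that folds Toll-like receptors and integrins, had 12.34, 12.33 and 12.32 in PFOS spleens, against 11.99, 12.01 and 11.99 in control spleens. It was higher on every PFOS array, by 0.34 ± 0.02 (SE, limma adjusted p = 1.00e-05). That rise rests on 1 probe set: a second fell by 0.28, and the mean over both, at 0.03, was not called (limma adjusted p = 0.33). Hsp90ab1, the constitutive cytosolic form, was not analysed here.

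The small heat shock proteins held the largest rises. Of 8 tested genes with Hspb names, which include binding proteins of other families, 4 rose, 3 fell and 1 was not called, with a median of 0.17. Over all genes tested, 40.6% rose and 26.0% fell. Hspb1 (Hsp25), which guards actin and unfolded protein, had 9.13, 9.19 and 9.19 in PFOS spleens and 8.63, 8.58 and 8.71 in control spleens. The groups lay clear of each other, the rise was 0.53 ± 0.04 (SE, limma adjusted p = 1.41e-05), and a second probe set rose by 0.66. Hspb8, a partner of Bag3 in selective autophagy, had 7.44, 7.54 and 7.58 in PFOS spleens and 7.06, 7.07 and 7.04 in control spleens. Every PFOS array was higher, by 0.46 ± 0.04 on average (SE, limma adjusted p = 3.53e-05). Another Hspb8 probe set rose by 0.28, and a dimmer one, at 0.08, was not called.

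Hspb7, best known from heart, rose by 0.34 ± 0.06 (SE), and Hspb11, an intraflagellar transport subunit despite its name, rose by 0.39 ± 0.03 (SE). Hspb6 (Hsp20), a small member of muscle, had 5.72, 5.55 and 5.32 in PFOS spleens and 6.05, 6.13 and 6.05 in control spleens. It fell by 0.54 ± 0.09 (SE, limma adjusted p = 0.0013), but its PFOS mean of 5.53 lies under the filter floor of 5.62, where values are near background. Hspbap1, which binds Hspb1, fell by 0.35 ± 0.03 (SE), and Hspbp1, a nucleotide exchange factor of Hsp70, fell by 0.12 ± 0.03 (SE). Hspb2, at -0.01, was not called.

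In mitochondria the chaperonin Hspd1 (Hsp60) stood out. It had 10.82, 10.78 and 10.72 in PFOS spleens, against 11.40, 11.39 and 11.40 in control spleens. The control arrays were nearly equal and all higher, and the change was -0.63 ± 0.03 (SE, limma adjusted p = 1.97e-06). Its lid Hspe1 (Hsp10) had 10.93 on each PFOS array and 10.87, 10.87 and 10.85 on the control arrays. That rise of 0.07 ± 0.02 (SE, limma adjusted p = 0.034) is the smallest called among the chaperones and is lost when any 1 of the 6 arrays is left out. The second Hspe1 probe set had a change of -0.009, and in the separate fit over all probe sets neither was called. The difference between both genes was not tested. They lie head to head. For the Hspd1 start site shown above, the start sites are 216 bases apart and the promoter windows share 285 bases and the same heat shock pairs, which begin 144, 139 and 134 bases before that start site and 89, 84 and 79 bases before that of Hspe1. Hspd1 has a further annotated start site, whose window holds no pair.

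Hspa9 (mortalin), the Hsp70 of mitochondria, had 9.56, 9.52 and 9.49 in PFOS spleens and 9.62, 9.52 and 9.50 in control spleens. The groups overlapped and its change of -0.02 was not called (limma adjusted p = 0.62), although another probe set above the filter fell by 0.12. Dnaja3 (Tid1), its J partner, fell by 0.12 ± 0.04 (SE, limma adjusted p = 0.019), a call lost without PFOS replicate 2 or control replicate 1. Dnajc11, which joins the complex that shapes the inner membrane, fell by 0.36 ± 0.04 (SE, limma adjusted p = 7.72e-05). Dnajc30 rose by 0.25, Dnajc4 by 0.18 and Dnajc15, which restrains respiratory complex I, by 0.11.

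In the ER, the central Hsp70 was not called, and the DnaJ genes were mixed. Of 4 tested DnaJ B genes of the ER, 2 rose, 1 fell and 1 was not called. Of 6 DnaJ C genes of the ER, 3 rose and 3 were not called. The shares over all genes tested were 40.6% higher and 26.0% lower. Hspa5 (BiP) had 12.59, 12.57 and 12.55 in PFOS spleens and 12.57, 12.55 and 12.58 in control spleens. The groups overlapped fully, with a change of 0.003 ± 0.02 (SE, limma adjusted p = 0.92). Dnajb9 (ERdj4), which marks misfolded protein for export and restrains Ire1, had 9.56, 9.51 and 9.54 in PFOS spleens and 9.33, 9.29 and 9.33 in control spleens. It was higher on every PFOS array, by 0.22 ± 0.03 (SE, limma adjusted p = 2.24e-04). Dnajb11 (ERdj3), a partner of BiP in antibody assembly, had 9.04, 9.07 and 9.08 in PFOS spleens and 9.04, 9.10 and 9.04 in control spleens, overlapped and was not called at 0.003 (limma adjusted p = 0.94).

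Dnajc3 (P58IPK), a BiP partner that also restrains eIF2α kinases, had 9.69, 9.60 and 9.61 in PFOS spleens and 9.53, 9.47 and 9.48 in control spleens. The lowest PFOS array was above the highest control array, and the gene rose by 0.14 ± 0.03 (SE, limma adjusted p = 0.0064). Dnajb14, anchored in the ER membrane, rose by 0.38 ± 0.04 (SE), whereas its close relative Dnajb12 fell by 0.15 ± 0.04 (SE). A second probe set of Dnajb14 rose by 0.16, but that of Dnajb12, at 0.015, was not called. Dnajc10 (ERdj5), a disulfide reductase, rose by 0.12 on 1 probe set, and its other probe sets, at -0.002 and -0.01, were not called. Hspa13 rose by 0.19, but its other probe sets above the filter, at -0.02 and -0.10, were not called, the mean over its probe sets was 0.03 (limma adjusted p = 0.44), and the call is lost without control replicate 3. Dnajc14 rose by 0.24, a call lost without control replicate 2. Another Dnajc14 probe set rose by 0.26, and a further one, at 0.006, was not called. Dnajc1 (ERdj1) and Dnajc16, each at -0.03, and Dnajc25, at -0.15, were not called, although other probe sets of Dnajc1 rose by 0.19, 0.26 and 0.37 and another of Dnajc16 rose by 0.26.

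The promoters of Hsp90b1, Hspa5 and Dnajc3 are shown because they carry the ER stress element, the site of the unfolded protein response factor ATF6. Capitals mark its parts CCAAT and CCACG, 9 bases apart and read on either strand.
Hsp90b1, chr10:86705445-86705664, minus strand: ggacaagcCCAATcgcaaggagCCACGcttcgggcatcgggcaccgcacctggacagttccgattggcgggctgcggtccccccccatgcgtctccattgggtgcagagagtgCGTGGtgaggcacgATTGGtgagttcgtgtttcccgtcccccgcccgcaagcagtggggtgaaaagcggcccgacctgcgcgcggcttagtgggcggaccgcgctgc
Hspa5, chr2:34771940-34772089, plus strand: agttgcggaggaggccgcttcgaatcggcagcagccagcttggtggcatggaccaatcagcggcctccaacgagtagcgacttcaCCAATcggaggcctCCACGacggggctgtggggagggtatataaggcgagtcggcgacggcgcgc
Dnajc3, chr14:118937782-118937931, plus strand: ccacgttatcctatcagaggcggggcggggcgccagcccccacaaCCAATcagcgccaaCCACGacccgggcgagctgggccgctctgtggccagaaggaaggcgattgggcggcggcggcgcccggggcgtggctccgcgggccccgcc
Of these genes, Hsp90b1 and Dnajc3 rose and Hspa5 was not called.

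The DnaJ C genes, whose proteins carry a J domain within otherwise unlike proteins, had no called change as large as 0.5 on the probe sets that stand for them. Of 26 tested, 11 rose, a share near the 40.6% of all genes, 3 fell and 12 were not called, with a range of -0.38 to 0.27 and a median of 0.04. The lowest was Dnajc9, which hands histones to Hsp70 and is made in dividing cells, with 10.09, 10.01 and 10.02 in PFOS spleens and 10.46, 10.41 and 10.40 in control spleens. It fell by 0.38 ± 0.03 (SE, limma adjusted p = 3.53e-05) with no overlap. Dnajc21, which acts in assembly of the large ribosomal subunit, fell by 0.19 ± 0.06 (SE) on its brightest probe set, a call lost without PFOS replicate 2 or 3 or control replicate 1, and by 0.58 on another. Dnajc12, which assists aromatic amino acid hydroxylases, rose by 0.27 ± 0.04 (SE), and Dnajc17, a nuclear member linked to splicing, by 0.25 ± 0.03 (SE).

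Dnajc22 rose by 0.24, and Dnajc7, which bridges Hsp70 and Hsp90 through TPR repeats, rose by 0.19 ± 0.03 (SE). Dnajc5, the cysteine string protein of secretory vesicles, rose by 0.11 on its brightest probe set and fell by 0.33 and 0.21 on others, so that its direction is uncertain. The uncalled DnaJ C genes Dnajc2, Dnajc5b, Dnajc6, Dnajc8, Dnajc13, Dnajc18, Dnajc24, Dnajc27 and Dnajc28 had changes between -0.03 and 0.07, although another probe set of Dnajc2 fell by 0.23.

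The probe sets add what 1 value per gene leaves out. When all were fitted with no filter, 37 of the 174 chaperone probe sets rose (21.3%), 52 fell (29.9%) and 85 were not called. Over all 34945 probe sets with 1 symbol, 29.6% rose and 21.2% fell. Of the 39 genes with several probe sets above the filter, 20 had the same call on all of them, and 2, Hsp90b1 and Dnajc5, had probe sets called in opposite directions. Probe sets lie at different places along a transcript, and what separates them was not tested. The genes Dnajb3, Dnajb7, Dnajb13, Dnajc5g, Hspa1l, Hspb3 and Hspb9, which have 1 probe set each, stayed under the filter, with means of 3.87 to 5.56. Without the filter Dnajb3 and Dnajb13 were called lower, at -0.81 and -0.23.

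**Figure D3:**
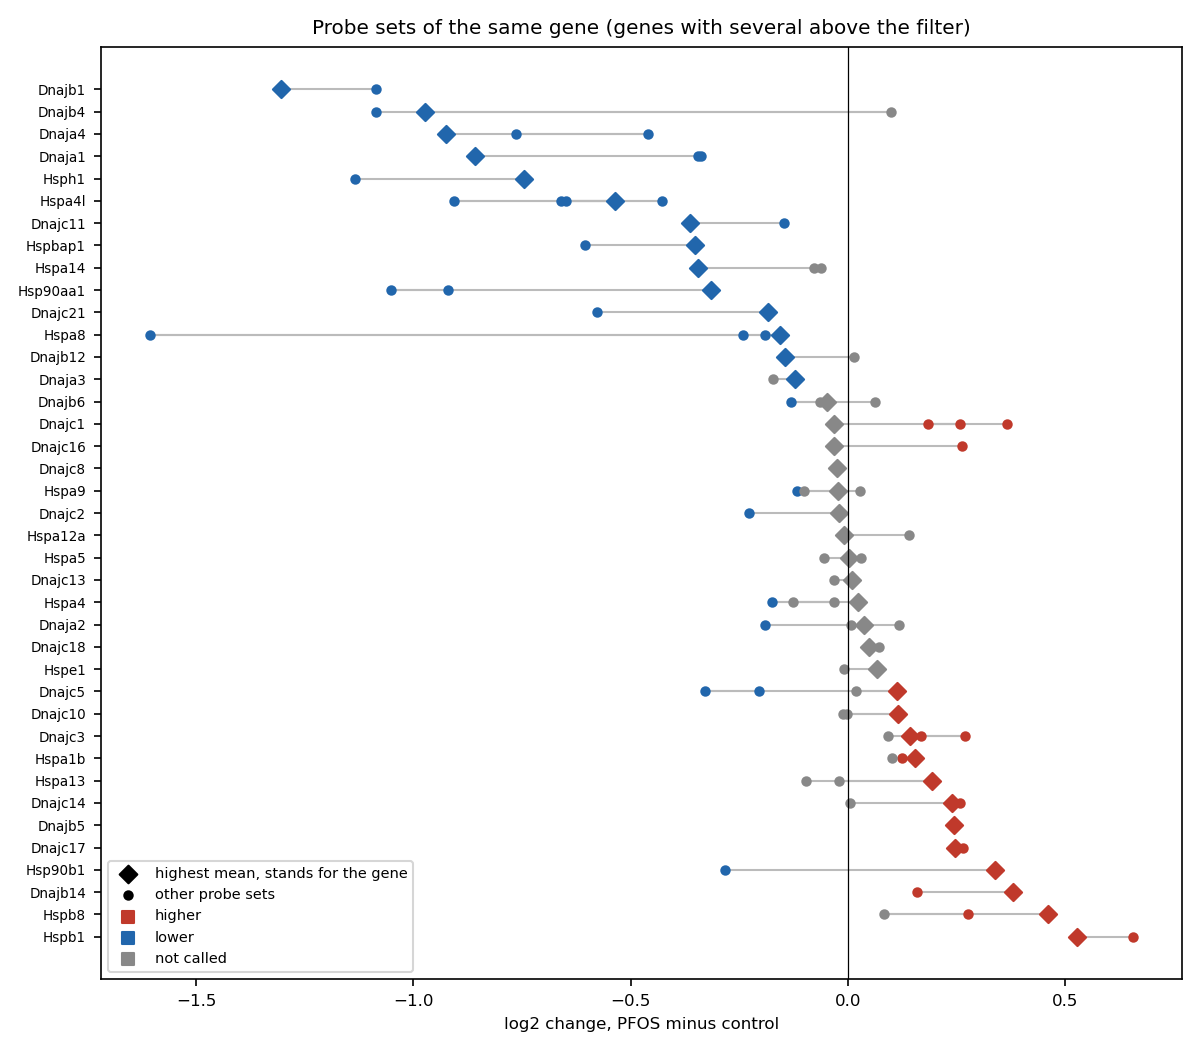
Log2 change of every probe set above the filter for the 39 chaperone genes with several, PFOS minus control, with a diamond for the probe set that stands for the gene and colours for calls in the fit over all probe sets, where Hspe1 is not called. Hspa8 spans -1.61 to -0.16, and Hsp90b1 lies on both sides of 0.

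Genes that work with these chaperones also changed in both directions. Of 25 tested cochaperones of Hsp70 and Hsp90, 14 fell, 7 rose and 4 were not called, with a median of -0.08 against 0.05 for all genes. Over all genes tested, 26.0% fell and 40.6% rose. Bag2, which inhibits the ubiquitin ligase Chip, fell by 0.89 ± 0.11 (SE), and Bag1, a nucleotide exchange factor, fell by 0.53 ± 0.03 (SE). The Hsp90 partners Ahsa2 and Chordc1 fell by 0.40 and 0.36. Of 15 genes of the cytosolic chaperonin TRiC and its helper prefoldin, 10 fell, 3 rose and 2 were not called, with a median of -0.14. The TRiC subunit Tcp1 fell by 0.35, the prefoldin subunit Pfdn6 fell by 0.51, its partner Pfdn5 rose by 0.42, and Pdcl3, which helps TRiC, rose by 0.35.

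Of 30 tested genes of ER folding and the unfolded protein response, 15 rose, 4 fell and 11 were not called, with a median of 0.09. Over all genes tested, 40.6% rose and 26.0% fell. Xbp1, the transcription factor of plasma cells and of this response, rose by 0.43 ± 0.03 (SE), Edem1, which clears misfolded glycoprotein, rose by 0.45 ± 0.03 (SE), and Serp1, which steadies protein entering the ER, rose by 0.36 ± 0.02 (SE). Ppp1r15a (Gadd34), which reverses the phosphorylation of eIF2α, had 9.43, 9.41 and 9.43 in PFOS spleens, against 10.61, 10.59 and 10.62 in control spleens. It fell by 1.18 ± 0.02 (SE, limma adjusted p = 2.33e-08) with the groups far apart. Of 19 genes of the mitochondrial Hsp70 motor, Trap1 and the mitochondrial proteases, 10 fell, 1 rose and 8 were not called, with a median of -0.09. The proteases Htra2, Afg3l2, Lonp1 and Yme1l1 fell by 0.42, 0.29, 0.23 and 0.21. Of 5 genes listed for heat shock factors, 2 were tested. Hsbp1, which binds heat shock factor 1 and is not a factor itself, rose by 0.19. Hsf4, the only factor tested, was not called at -0.02. Its means of 5.67 in PFOS and 5.69 in control spleens lie near the filter floor of 5.62.

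Markers of several cell types moved with these genes. Summed markers of red cell precursors were at 12.82 to 12.84 in PFOS spleens and 14.20 to 14.21 in control spleens, with 6 of 6 tested markers lower. Summed markers of dividing cells were at 13.04 to 13.05 in PFOS spleens and 14.55 to 14.56 in control spleens, with 5 of 5 lower. Hepatocyte markers summed to 9.07 to 9.27 in PFOS spleens and 12.41 to 12.49 in control spleens, with 6 of 6 lower, and Apoa1, Fgb and Ahsg averaged under the filter floor in PFOS spleens. Neutrophil markers were lower for 6 of 6, at 11.88 to 11.92 in PFOS spleens and 12.41 to 12.43 in control spleens, and pancreas markers for 4 of 4, at 8.90 to 9.06 in PFOS spleens and 9.89 to 9.91 in control spleens.

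Markers of lymphoid cells were higher instead. In plasma cells, which are rich in ER, 5 of 6 markers rose, to sums of 14.64 to 14.65 in PFOS spleens, against 14.35 to 14.40 in control spleens, and Xbp1 is on both this list and the ER list. For B cells 4 of 5 markers rose, and for T cells 5 of 5, at 11.82 in PFOS spleens and 11.30 to 11.32 in control spleens. Of 4 markers of red pulp macrophages, 2 rose and 2 were not called. The part of these cell types, of the labelling spikes and of the Actb and Gapdh differences in the chaperone changes was not tested.

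Chaperone genes with heat shock pairs in their promoters went both ways. Of the 72 genes, 59 had RefSeq promoter windows on GRCm38.p6 that run from 250 bases before to 50 after a start site, 76 windows in all. Either pair, GAANNTTC or TTCNNGAA, which each read the same on both strands, was present in 23.7% of the chaperone windows and in 15.1% of all 32851 windows. For GAANNTTC alone the shares were 21.1% and 7.86%, and for TTCNNGAA alone 10.5% and 8.52%. A heat shock element of 3 units, in which both pairs overlap, was present in 7.89% of chaperone windows and 0.603% of all windows, and the ER stress element in 3.95% and 0.119%. Windows of 1 gene or of neighbours can overlap: the 6 chaperone windows with 3 units belong to Dnajb6, Hsph1, Hspd1 and Hspe1 and cover 3 separate stretches of the genome. Counted per gene, a pair was present in 27.1% of the 59 chaperone genes and 17.0% of all 27025 genes with a window, and 3 units in 6.78% and 0.662%.

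Of the 14 tested chaperone genes with a pair, 5 rose, 6 fell and 3 were not called, with a median of -0.02. Of the 38 with a window but no pair, 14 rose, 10 fell and 14 were not called, with a median of 0.003. Over all tested genes the medians were 0.06 for 1482 with a pair and 0.05 for 9078 without. Of the 58 tested genes of the whole array with a heat shock element of 3 units, 34.5% rose and 41.4% fell, with a median of -0.05. For the 10502 with a window but without 3 units, 40.7% rose and 26.3% fell, with a median of 0.05. Among the 4 chaperones with 3 units, 1 rose, 2 fell and 1 was not called. These differences were not tested. Of the 16 tested genes of the whole array with the ER stress element, 10 rose (62.5%), among them the chaperones Hsp90b1 and Dnajc3, none fell and 6 were not called, with a median of 0.15. Of the 10544 tested genes with a window but no such element, 40.6% rose and 26.5% fell, and the difference was not tested. A match is a description of the letters in the window and not of a bound site.

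**Figure D4:**
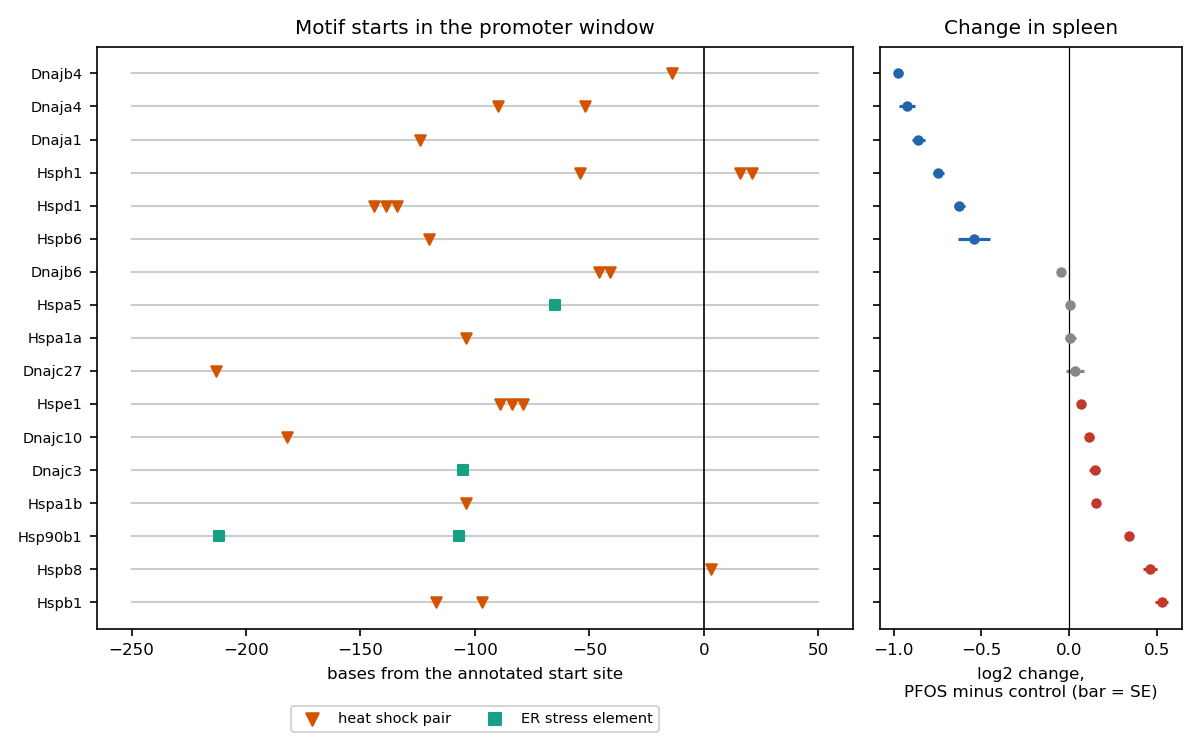
Left, start of each heat shock pair (triangles) and ER stress element (squares) in the promoter window of tested chaperone genes (1 window per gene), in bases from the annotated start site, with genes in order of their change; right, log2 change, PFOS minus control, with its SE. Genes with heat shock pairs run from Dnajb4 (-0.97) to Hspb1 (0.53).

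Because RMA makes the arrays alike, each change is relative to the rest of the array, and other scalings moved all genes together. The median change of all genes was 0.05 as deposited, 0.09 after centring each array on its median, 0.07 after a further quantile normalization, -0.02 after scaling on ribosomal protein genes and 0.53 after scaling on the labelling spikes. Rises made up 55.8% of the chaperone calls as deposited, 32.6% after ribosomal scaling and 88.7% after spike scaling, and 61.0%, 43.4% and 93.8% of the calls over all genes. After spike scaling 55 chaperone genes were called higher and 7 lower. The 7 were Dnajb1, Dnajb2, Dnajb4, Dnaja4, Dnaja1, Hsph1 and Hspd1, whose fall was thus called under each of these scalings. The other falls, among them those of Hsp90aa1 and Hspa8, were called higher or not called after spike scaling. The labelling spikes averaged 5.79 to 5.84 on PFOS arrays, close to the filter floor of 5.62, which limits this scaling.

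**Figure D5:**
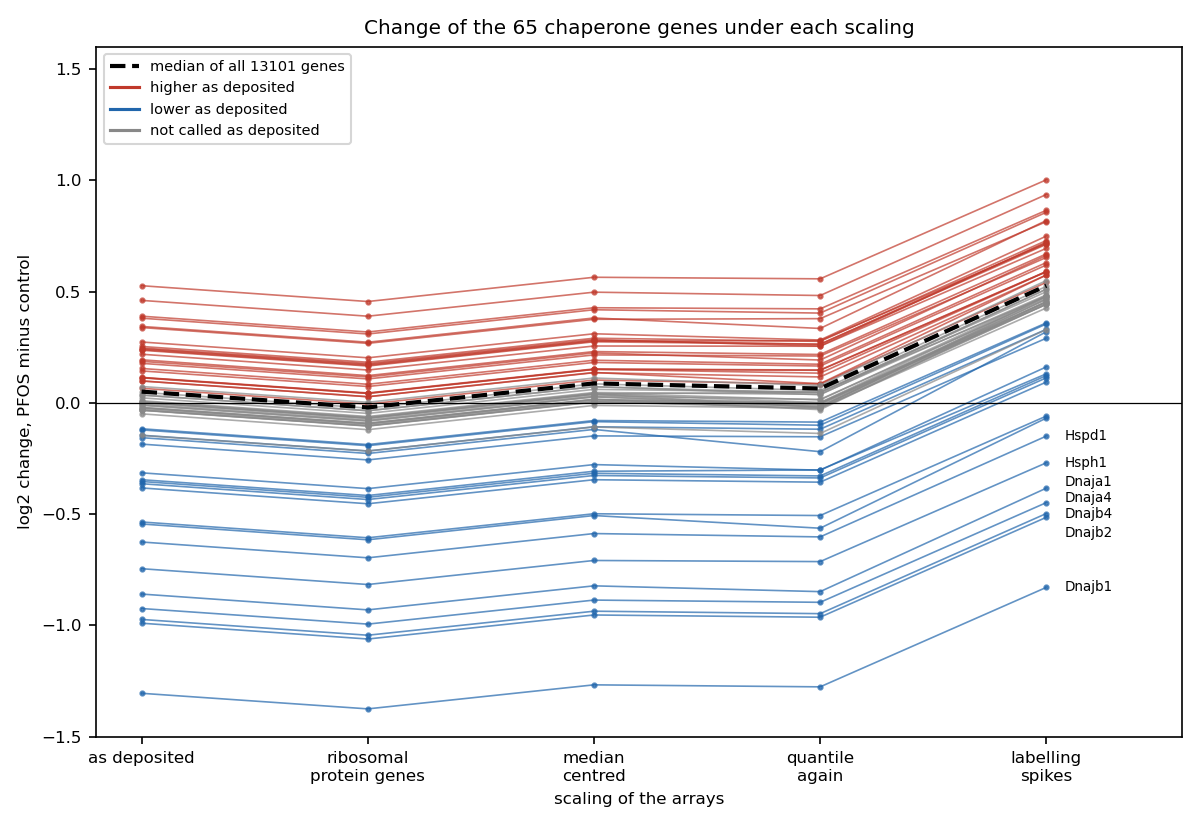
Log2 change of the 65 chaperone genes, PFOS minus control, under each scaling of the arrays, coloured by the call as deposited, with the median of all 13101 genes as a dashed line. The genes shift nearly together, and the 7 genes named at the right remain lower after scaling on the labelling spikes, where the median of all genes is 0.53.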

How the data were processed

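RNA of 3 PFOS and 3 control spleen samples was hybridized to 1 Affymetrix Mouse430_2 array each. The authors deposited log2 values made by RMA, per the submitters' processing notes. For its version and any filter, the sources used here give nothing. Probe sets were named through the platform annotation: 64 were array controls, 932 had several symbols and 9160 had none. All 174 chaperone probe sets had identifiers that matched the RefSeq gene table of GRCm38.p6 under the same symbol.

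Probe sets with a mean over the 6 arrays under the 40th percentile (5.62) were left out, and the probe set with the highest mean stood for its gene. Groups were compared with limma 3.58.1 (lmFit and eBayes, two-sided) in R 4.3.3. All p-values were adjusted by Benjamini-Hochberg over the 13101 genes, and in a separate fit over 34945 probe sets. The method was tested on simulated data. Detection calls were not used here, and the number of arrays limits the precision. An exact permutation test of 3 against 3 arrays cannot give a p below 0.1 and was not used.

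The text names a core of chaperones whatever their values, up to 5 called genes with the largest rise and fall in each family, genes whose probe sets oppose each other, and up to 4 called genes of each other list. Genes named beyond it, among them those not called, were chosen after their values were seen. Members, families and lists were chosen with earlier results of these data known. Motifs were searched in RefSeq promoter windows. Alternatives covered the filter, scaling, probe set choice, variance prior, threshold, replicate block and each array left out.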

Additional observations from a re-analysis of the deposited data

How the results depend on the processing

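With each array left out in turn, 20 to 21 chaperone genes were called higher and 17 to 20 lower, and 4824 to 5209 of all genes higher and 3111 to 3313 lower. Of 710 compared values of 45 named chaperones, 630 kept direction and call, 17 values of 6 genes changed sign without a call on either side, 40 lost the call, 7 gained one and 16 changed sign with a call on at least 1 side. Of all 24 chaperone genes called higher and 19 called lower, also those outside the 45, 13 and 7 kept the call under all 16 alternatives that measured the gene. Scaling decided most of the rest. On labelling spikes, 11912 genes were called higher and 792 lower, of which chaperones were 55 and 7. There Hsp90aa1 turned to 0.16, Hspa8 to 0.32, Hspa9 to 0.45, Hspa14 to 0.13, Hspbap1 to 0.12, Hspbp1 to 0.36, Dnaja3 to 0.36, Dnajb12 to 0.33, Dnajc9 to 0.094 (not called), Dnajc11 to 0.11 and Dnajc21 to 0.29. On ribosomal protein genes, 14 chaperones were called higher and 29 lower, and Hspa5 turned to -0.068 and Hspe1 to -0.005. With the mean over probe sets Hspa4 turned to -0.077 and Dnajc5 to -0.10, and without probe sets that may match several transcripts Hspe1 turned to -0.009. Minus that of all genes, the DnaJ A median ran from -0.91 to -0.37 and the ER median from -0.05 to 0.08, so that the ER median has no settled sign. The labels state no pairing, so the replicate numbers were not taken as pairs. Same-numbered arrays of both groups correlated at 0.32, 0.14 and 0.097 in their deviations, and control replicate 3 correlated best with PFOS replicate 2, at 0.13. Replicate 1 arrays correlated negatively with differently numbered arrays of the other group, at -0.23 to -0.18. Deviations of the 3 arrays of a group cancel out for each gene, so a positive correlation brings negative ones with it. These negative values are thus not a separate observation. Whether the replicate 1 arrays share an effect was not tested. With the replicate block, 5518 of all genes were called higher and 3532 lower, and 23 and 20 chaperones. Without probe sets that may match several transcripts, Hsp90b1, Hspa5, Hsph1, Hspb1, Dnaja3 and Dnajb2 were not measured, and with a 60th percentile filter Hspa1a, Hspa2, Hspb7 and Hspb6 were not. Values near the floor of 5.62 limit what can be said of Hspb6 and of genes under the filter. Causes of these differences were not tested.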

Other observations

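Another 3 probe sets are annotated to both Dnajc19, a J protein of the mitochondrial import motor, and its pseudogene Dnajc19-ps, and so fell outside the rule. The first had 8.42, 8.42 and 8.40 in PFOS spleens and 8.50, 8.42 and 8.40 in control spleens, a difference of -0.03. The second had 5.15, 5.19 and 5.18 in PFOS spleens and 5.27, 5.28 and 5.36 in control spleens, a difference of -0.13, and lay under the filter floor on every array. The third had 8.01, 8.00 and 7.99 in PFOS spleens and 7.67, 7.83 and 7.80 in control spleens, a difference of 0.24. The PFOS arrays overlapped the control arrays in the first, and were all lower in the second and all higher in the third.

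Among the cochaperones, Bag2 had 5.63, 6.00 and 6.11 in PFOS spleens, against 6.79, 6.79 and 6.84 in control spleens. The PFOS arrays spread more widely than the control arrays and lie close to the filter floor of 5.62. Bag1 had 9.82, 9.74 and 9.76 in PFOS spleens and 10.35, 10.27 and 10.30 in control spleens, with no overlap.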
